A study of Arabidopsis thaliana with 12 samples.

Results

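DNA methylation of shoot stem cells that lack RNA polymerase IV was compared with that of wild-type stem cells in plants that had not been heated. Every locus of the deposited table with enough calls on both sides was taken. The table lists 69575 transposable elements (TEs) and genes of the nuclear chromosomes, and 54251 of them had at least 50 cytosine calls in both genotypes in at least 1 of the sequence contexts CG, CHG and CHH (H = A, C, T). In CG 7800 TEs and 31203 genes were compared, in CHG 7151 TEs and 31127 genes, and in CHH 20872 TEs and 33340 genes. A level is the percentage of cytosine calls of a locus that were methylated, and differences are given in percentage points as poliv minus wt.

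All plants were Arabidopsis thaliana of accession Col-0 and carried the pCLV3::H2BmCherry reporter, which marks nuclei of cells that express CLAVATA3 (CLV3), the peptide signal of shoot stem cells. The wt plants carried the reporter alone, and the poliv plants carried it in nrpda-3 (SALK_128428), a T-DNA insertion in NRPD1 that was represented by 1 line. Marked nuclei were sorted from inflorescence apices at day 28 and sequenced after bisulfite treatment, with 2 libraries per group. The unheated pair (wt control and poliv control) is the subject here. The heated pair (wt heat and poliv heat), plants kept at 37 °C for 1 day and then without heat for 21 days, repeats the same genotype contrast in other libraries. Any difference that this poliv line carries for another reason than the missing polymerase cannot be told apart from the effect of the allele.

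Methylation of CHH sites in plants has to be set anew after each replication. RNA polymerase IV makes the precursors of small interfering RNAs, RDR2 turns them double-stranded, DCL3 cuts them, and AGO4 guides the methyltransferase DRM2 to matching DNA, mostly at short TEs and TE edges on the chromosome arms. CMT2 methylates CHH sites of long TEs around the centromeres without these RNAs, CMT3 maintains CHG methylation where histones are methylated, and MET1 copies CG methylation at each replication. TEs carry methylation in the 3 contexts, whereas many transcribed genes carry it only at CG sites.

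Sequences of loci that changed in poliv are given to show where the cytosines in question lie. Each is from RefSeq TAIR10.1, is written 5′ to 3′ and has the cytosines of 1 context on the printed strand in capitals. The first, MIR405a (chr2:9634957-9635113, minus strand), is a microRNA gene of 157 bases, shown whole, with its 27 CHH cytosines marked. The second is a stretch of 300 bases of AT1G77815 (chr1:29263351-29263650, minus strand), a protein-coding gene of 303 bases with 44 marked CHH cytosines. Both lost nearly all CHH methylation in poliv.
MIR405a: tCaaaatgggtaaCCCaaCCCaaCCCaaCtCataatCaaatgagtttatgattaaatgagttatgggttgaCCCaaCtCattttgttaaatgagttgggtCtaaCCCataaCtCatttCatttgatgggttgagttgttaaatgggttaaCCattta
AT1G77815: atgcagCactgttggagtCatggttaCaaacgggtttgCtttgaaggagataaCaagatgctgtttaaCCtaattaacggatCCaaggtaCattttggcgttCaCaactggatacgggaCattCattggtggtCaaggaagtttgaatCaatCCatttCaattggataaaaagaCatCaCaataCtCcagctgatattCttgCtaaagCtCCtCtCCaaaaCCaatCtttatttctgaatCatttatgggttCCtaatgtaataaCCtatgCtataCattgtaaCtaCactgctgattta
The next pair lost methylation in the symmetric contexts. AT5G04435 (chr5:9818925-9819175, minus strand), a long non-coding RNA gene, is shown whole with 12 CHG cytosines marked. AT1G64795 (chr1:24082579-24082848, plus strand), a protein-coding gene, is shown whole with 15 CG cytosines marked.
AT5G04435: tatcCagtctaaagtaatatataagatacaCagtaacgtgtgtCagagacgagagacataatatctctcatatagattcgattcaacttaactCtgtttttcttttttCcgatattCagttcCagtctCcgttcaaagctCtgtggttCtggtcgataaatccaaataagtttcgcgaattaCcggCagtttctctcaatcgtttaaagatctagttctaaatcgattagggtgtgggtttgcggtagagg
AT1G64795: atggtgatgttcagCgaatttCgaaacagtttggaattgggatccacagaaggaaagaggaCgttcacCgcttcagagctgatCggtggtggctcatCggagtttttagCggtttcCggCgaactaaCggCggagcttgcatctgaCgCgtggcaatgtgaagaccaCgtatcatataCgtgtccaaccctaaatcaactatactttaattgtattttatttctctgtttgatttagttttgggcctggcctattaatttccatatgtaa
The last went the other way and gained CG methylation. It is the first 300 bases of AT5G01325 (chr5:2218564-2218863, plus strand), a long non-coding RNA gene of 455 bases, with 5 CG cytosines marked. Its level is that of the whole gene, which has 28 CG cytosines on both strands, most of them outside this stretch.
AT5G01325: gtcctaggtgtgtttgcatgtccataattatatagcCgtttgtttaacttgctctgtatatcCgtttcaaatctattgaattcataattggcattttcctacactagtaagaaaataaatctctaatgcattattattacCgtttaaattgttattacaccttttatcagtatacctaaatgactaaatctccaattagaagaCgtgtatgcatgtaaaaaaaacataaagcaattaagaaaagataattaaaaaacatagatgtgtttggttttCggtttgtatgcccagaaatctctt

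The groups held 30597398 calls (wt control), 47449953 (poliv control), 48565595 (wt heat) and 40440617 (poliv heat) in CG, and the median TE had 139 CHH calls in wt control and 225 in poliv control. Chloroplast DNA, which is taken as unmethylated, gave CHH levels of 0.390% (wt) and 0.404% (poliv) without heat and of 0.703% and 0.704% with heat, so that the genotypes within a pair had nearly the same unconverted background. The values are 1 pooled figure per group, with no error between replicates. A locus was therefore called lower or higher where a two-sided Fisher's exact test on its calls gave a Benjamini-Hochberg adjusted p under 0.05 and the difference was at least 10 points in CHH or 20 points in CHG or CG. These calls compare libraries, and intervals cover counting error only.

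TEs lost methylation mainly at CHH and CHG sites. The mean CHH level of TEs was 4.74% in wt and 2.75% in poliv, and the median was 2.54% and 1.06%. The difference was carried by TEs with few calls. Weighted by coverage, the levels were 5.18% and 5.08%. Of 20872 TEs, 1503 were lower in CHH (7.2% of all TEs tested) and 81 were higher (0.388%). In CHG, where the mean level was 41.5% in wt and 38.2% in poliv, 315 TEs were lower (4.4%) and 5 higher (0.0699%). In CG the mean levels were 69.9% and 69.5%, and 115 TEs were lower (1.47%) and 40 higher (0.513%).

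Genes changed much less often. In CHH 71 genes were lower (0.213% of those tested) and 2 higher (0.006%), and in CHG 88 were lower (0.283%) and 4 higher (0.0129%). CG sites of genes went in both directions, with 42 genes lower (0.135%) and 47 higher (0.151%). The mean CHH level of genes was 0.708% in wt and 0.623% in poliv. Their mean CHG levels were 2.93% and 2.67%, and their mean CG levels 14.2% and 14.6%. Protein-coding genes made up 39 of the 71 CHH losses, which is 0.144% of the 27094 tested, against 0.213% of all genes. They made up 50 of the 88 CHG losses, which is 0.188% of the 26637 tested, against 0.283% of all genes. Long non-coding RNA genes were lower in CHG at 23 of 2620 loci (0.878%), against 50 of 26637 protein-coding genes (0.188%), and microRNA genes were lower in CHH at 9 of 280 loci (3.21%).

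The test statistic was also scaled by the difference between control and heated libraries of the same genotype, taken over TEs and genes together. The TEs called lower then numbered 433 in CHH, 125 in CHG and 71 in CG. This scale is not a measure of spread between libraries alone. It also holds any effect of heat and the shift in unconverted background, where the chloroplast CHH level of wt went from 0.390% to 0.703%. At TEs the spread between libraries of wt was large in CHH. Between wt heat and wt control, 394 TEs were lower and 365 higher in CHH by the same rule, and the standard deviation of the difference over TEs was 4.65 points, against 6.43 points between poliv and wt without heat. In CHG the same comparison within wt gave 6 lower and 4 higher TEs, and in CG 2 lower and 6 higher. Calls within wt were thus rare in CHG and CG, and in CHH they were frequent but nearly even in both directions, whereas poliv had 1503 lower and 81 higher.

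Losses repeated in the heated plants, whose libraries were not used for the calls. Heated values were available for 1448 TEs that were lower in CHH without heat. Of these 1349 (93.2%) were below wt there too, against 60.7% of all TEs, and 804 (55.5%) were called lower, against 6.57%. For CHG the counts were 290 of 297 TEs below wt and 161 called (54.2%, against 3.29% of all TEs), and for CG 107 of 110 and 67 called (60.9%, against 1.34%). Most gains in CHH did not repeat, and their median difference was 16.2 points without heat and -2.09 points in the heated pair. Of 78 TEs that were higher in CHH, 35 (44.9%) were above wt in the heated pair, against 36.6% of all TEs, and 10 (12.8%) were called higher, against 0.450% of all TEs. Of 39 TEs higher in CG, 33 were above wt (38.0% of all TEs were) and 21 were called (53.8%, against 0.530% of all TEs). Of 46 genes higher in CG, 46 were above wt (50.5% of all genes were) and 32 were called (69.6%, against 0.206% of all genes). Of 42 genes lower in CG, 40 were below wt (47.8% of all genes were) and 24 were called (57.1%, against 0.135%). For gene losses in CHG, 83 of 86 were below wt (55.9% of all genes were) and 38 were called (44.2%, against 0.174%). For those in CHH, 62 of 71 were below wt (57.0% of all genes were) and 21 were called (29.6%, against 0.171%).

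The size of the genotype difference was also tested between the pairs, by Woolf's test of equal odds ratios with Benjamini-Hochberg adjustment over all loci. It differed between unheated and heated plants at 159 of 1526 TEs called in CHH, at 9 of 149 called in CG and at 0 of 302 called in CHG. Over all TEs it differed at 807 of 20228 in CHH, at 206 of 7551 in CG and at 3 of 6952 in CHG, where 711 had an unadjusted p under 0.05.

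The largest CHH losses were at TEs that were strongly methylated in wt. At AT2TE58860 on chromosome 2, 66.1% of 248 CHH calls were methylated in wt control (95% Wilson interval 60.0 to 71.7%), against 0 of 294 calls in poliv control, which allows a level of up to 1.02%. The heated groups had 68.5% and 0.513%, and Fisher's exact test without heat gave an adjusted p of 6.95e-71. Both poliv groups lay at the level of chloroplast DNA. AT3TE17970 went from 64.0% in wt control to 0.901% in poliv control, and had 66.7% and 0.418% in the heated groups. AT4TE29620 had 60.8% in wt control and 0 of 202 calls in poliv control, a limit of 1.49%, with 60.1% and 1.77% after heat. In each of them both wt groups were far above both poliv groups. AT2TE33100 had 60.9% and 0.791% without heat and 65.4% and 0 of 129 calls after heat, a limit of 2.33%. AT5TE82820 had 61.5% and 1.03%, and 33.3% and 0.590%, so that its wt level itself differed between control and heat. These TEs and the other loci named as the largest changes were picked from called loci with at least 100 calls on both sides whose heated pair passed the same point minimum, so their heated values are a description and no separate test.

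The genes named for the largest CHH losses were of several kinds. MIR405a, whose sequence is given above, had CHH levels of 24.6% in wt control (134 calls) and 0.538% in poliv control (186 calls), and 20.4% and 0.952% in the heated groups. AT1G77815 had 35.6% and 2.15%, and 31.9% and 1.93%. Of AT1G77815, the symmetric contexts had fewer than 50 calls in wt control, and in the heated pair its CHG level was 79.8% in wt and 41.5% in poliv. AT3G44440 (chr3:16070840-16071256), a protein-coding gene, had CHH levels of 30.8% and 1.17% without heat and 37.6% and 0.746% with heat. AT5G09040 (chr5:24908742-24909077), a long non-coding RNA gene, had 29.4% and 1.38%, and 37.2% and 1.29%. AT1G11785, a protein-coding gene, had 37.5% and 4.32%, and 15.4% and 1.64%. In these 5 genes both poliv groups were below both wt groups.

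**Figure D1:**
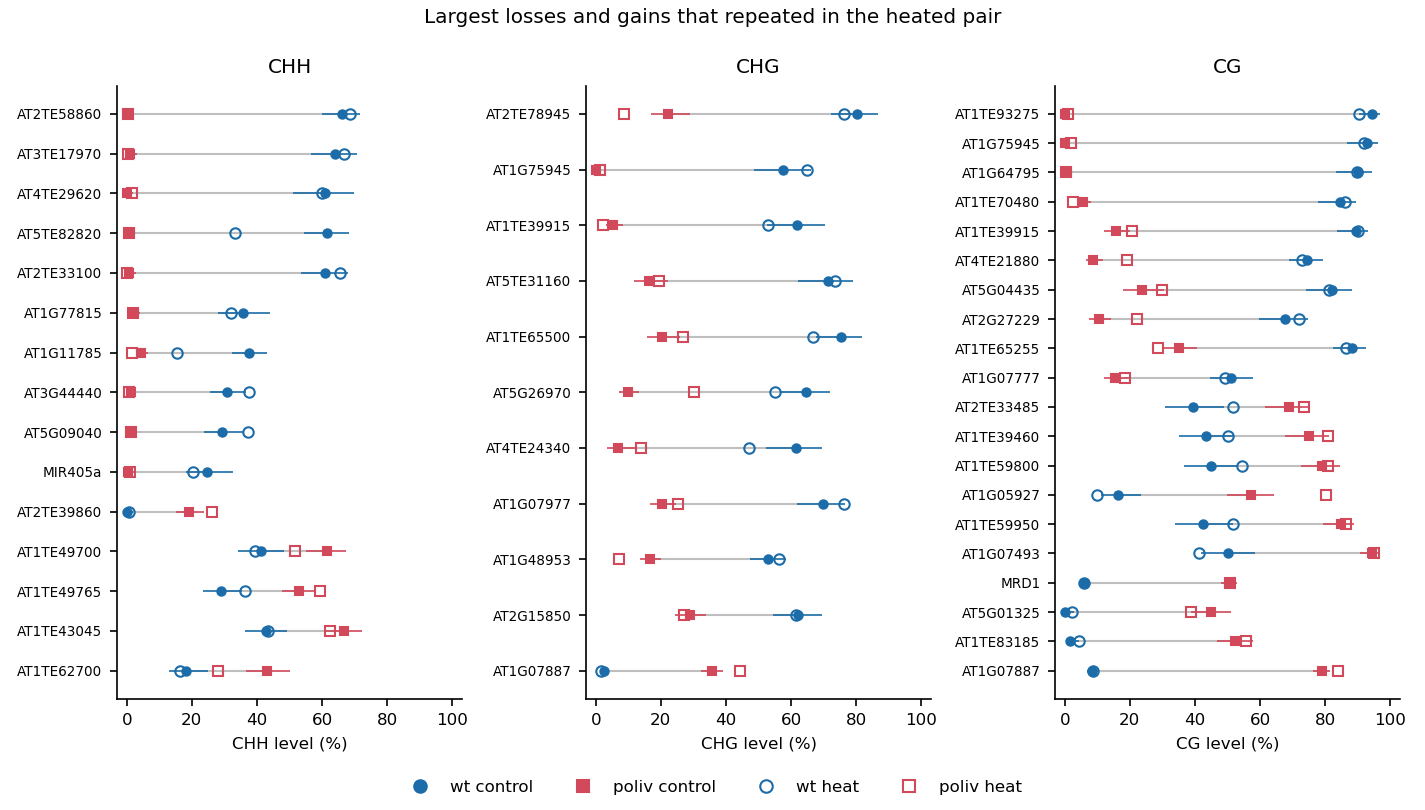
Methylation levels (%, x axis) of the loci with the largest losses and gains that also passed the point minimum in the heated pair, by context. Filled circles are wt control and filled squares poliv control, each with a 95% Wilson interval that covers counting error only, and open symbols are the heated groups. At AT2TE58860 wt control and wt heat lie at 66.1% and 68.5% and both poliv groups below 1%, whereas at AT5G01325 the order is turned.

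The plot of levels at the named loci shows that the pairs of each genotype lay close to each other at most loci, with AT5TE82820 and AT1G11785 in CHH and AT5G26970 in CHG among those where they did not.

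CHG losses left more behind. AT2TE78945 had CHG levels of 80.3% in wt control, 22.3% in poliv control, 76.2% in wt heat and 8.79% in poliv heat (adjusted p of 1.96e-20 by Fisher's exact test without heat). AT5TE31160 had 71.3%, 16.3%, 73.5% and 19.3% in the same order, and AT1TE65500 had 75.4%, 20.4%, 66.7% and 26.8%. All 3 were also lower in CHH and CG in poliv control. AT4TE24340 had CHG levels of 61.3%, 6.72%, 47.1% and 13.9%, and AT1TE39915 had 62.0%, 5.25%, 52.8% and 2.16%. Among genes, AT1G75945 (chr1:28515245-28515916) had 57.6% in wt control and 0 of 235 calls in poliv control, a limit of 1.28%, with 64.8% and 1.18% after heat. AT1G48953 had 52.9%, 16.7%, 56.3% and 7.02%, and was also lower in CHH, where it had 14.3% in wt control and 1.00% in poliv control. AT5G26970 had CHG levels of 64.7%, 9.86%, 55% and 30.2%, AT1G07977 had 69.7%, 20.4%, 76.3% and 25.3%, and the transcribed pseudogene AT2G15850 had 62.2%, 28.8%, 61.5% and 27.2%. Each of these genes and TEs had both poliv groups below both wt groups. No TE higher in CHG met the rule for naming.

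CG losses were few but some were complete. AT1TE93275 had CG levels of 94.4% in wt control (196 calls) and 0 of 677 calls in poliv control, a limit of 0.443%, and 90.5% and 1.02% in the heated groups (adjusted p of 5.57e-173 by Fisher's exact test without heat). Its CHG level fell with it, from 49.4% to 0 of 503 calls. AT1TE70480 had CG levels of 84.6% and 5.66% without heat and 86.2% and 2.42% with heat, AT1TE39915 had 89.3% and 15.6%, and 89.9% and 20.7%, AT4TE21880 had 74.5% and 8.70%, and 72.8% and 19.3%, and AT1TE65255 had 88.3% and 34.97%, and 86.5% and 28.6%. These TEs but for AT4TE21880 are on chromosome 1, but they were picked as the largest changes. Of all 115 TEs lower in CG 32 are on chromosome 1, where 19.5% of the tested TEs lie.

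Among genes, AT1G75945 had CG levels of 92.9% in wt control and 0 of 261 calls in poliv control, a limit of 1.15%, and 92.0% and 1.89% in the heated groups, so that CG and CHG were lost together. AT1G64795 had 90.2% and 0.826%, and 89.7% and 0.402%. It lies within AT1G64790 on the opposite strand, so that their cytosines cannot be told apart, and AT1G64790 as a whole had CG levels of 58.0% and 49.6% without heat. AT5G04435 had 82.1% and 23.7%, and 81.1% and 29.9%, and in CHG it went from 42.2% to 1.32% without heat. AT2G27229 (chr2:11649057-11649998) had CG levels of 67.6% and 10.4%, and 71.9% and 22.2%, and AT1G07777 had 51.2% and 15.5%, and 49.2% and 18.5%. Each of these had lost CG methylation in both poliv groups.

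Gains in genes were mostly at CG sites, where 47 genes were higher, against 4 in CHG and 2 in CHH. Of TEs, 40 were higher in CG, 5 in CHG and 81 in CHH. The largest gain in CG was at AT1G07887, a long non-coding RNA gene, with CG levels of 8.32% in wt control, 79.0% in poliv control, 8.70% in wt heat and 84.0% in poliv heat (adjusted p of 4.14e-239 by Fisher's exact test without heat). Its CHG level rose as well, from 2.40% to 35.7% without heat. It shares cytosines with MRD1 (chr1:19963047-19964712), which had CG levels of 5.88%, 50.5%, 5.90% and 50.7%. These values therefore describe 1 region. AT5G01325 had CG levels of 0 of 138 calls in wt control, a limit of 2.17%, 44.9% in poliv control, 2.17% in wt heat and 38.9% in poliv heat. AT1G07493 had 50%, 94.2%, 41.3% and 94.9%, and AT1G05927 had 16.4%, 57.2%, 9.94% and 80.2%. Among TEs AT1TE83185 went from 1.54% to 52.3% without heat and from 4.42% to 55.7% with heat. AT1TE59950, AT1TE59800, AT1TE39460 and AT2TE33485 had intermediate levels in wt control, between 39.4% and 44.9%, and between 68.9% and 84.7% in poliv control. Of these TEs all but AT2TE33485 are on chromosome 1, but of all 40 TEs higher in CG 14 are, where 19.5% of the tested TEs lie.

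Some microRNA genes, chosen after their values were seen, were among the genes with higher CG methylation. Of 93 microRNA genes tested in CG, 4 were higher (4.30%) and 1 was lower, against 0.151% higher and 0.135% lower over all genes. MIR171c (chr1:22930089-22930204), whose microRNA acts on SCARECROW-LIKE transcription factors, had CG levels of 23.7% in wt control (76 calls), 70.6% in poliv control (102 calls), 20.3% in wt heat and 71.3% in poliv heat. MIR169a (chr3:4358994-4359219), whose microRNA acts on NF-YA transcription factors, had 34.6%, 75.7%, 33.3% and 78.0%. Both poliv groups were above both wt groups at these loci. MIR171b had 22.5%, 43.9%, 23.9% and 36.8%, and MIR172e, whose microRNA acts on APETALA2-like factors, had 16.1%, 42.7%, 21.0% and 34.3%, and neither was called in the heated pair. The gene that was lower, MIR831, had 43.3%, 16.5%, 43.1% and 24.4%.

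TEs with higher CHH in poliv included AT2TE39860, which had 0 of 212 calls in wt control, a limit of 1.42%, 19.1% in poliv control, 0.847% in wt heat and 26.2% in poliv heat. The other named ones were already methylated in wt. AT1TE43045 had CHH levels of 42.7%, 66.8%, 43.4% and 62.5%, AT1TE49765 had 29.1%, 52.9%, 36.4% and 59.5%, AT1TE49700 had 41.1%, 61.3%, 39.4% and 51.5%, and AT1TE62700 had 18.2%, 43.2%, 16.4% and 27.9%. Of the 81 TEs higher in CHH, 17 lay in the windows of chromosome 1 with the highest CHG methylation, which are described with the positions. These windows hold 1079 of the tested TEs, of which 1.58% were higher, against 0.388% of all TEs.

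The genes of the pathways themselves were not called. None of 25 genes of RNA-directed DNA methylation and none of 13 genes of methylation maintenance or demethylation was called in any context. Over all genes at most 0.283% were called in any context and direction, so that lists of this size would rarely hold a called gene. NRPD1 (chr1:23354685-23362589), the largest subunit of RNA polymerase IV and the gene with the T-DNA insertion, had 0.730% of its CHG calls methylated in wt control, against 14.9% in poliv control, with 0.951% and 14.9% in the heated groups. Its CHH levels without heat were 0.402% and 1.76%. The CHG gain did not reach 20 points, although Fisher's exact test gave an adjusted p of 1.19e-166. Its CG levels were 65.7%, 69.1%, 69.7% and 70.7%. A methylation level does not show by itself that the gene was disrupted.

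Of 10 loci known for silencing by DNA methylation, at most 8 were tested and none was called, which at these shares says little about the list. SDC had CHH levels of 0.972% in wt and 0.638% in poliv without heat, and FWA had CG levels of 20.7% and 20.4%. These are averages over whole loci and do not resolve their promoter repeats. Of the 8 copies of the heat-responsive Copia element ONSEN, all tested in CHH, 1 was lower (7.2% of all TEs were) and the median difference was -5.44 points, against -0.101 points over all TEs. That copy, AT1TE71045, had CHH levels of 17.7% in wt control, 2.16% in poliv control, 15.4% in wt heat and 2.22% in poliv heat. Of 23 heat-induced Gypsy elements, 22 were tested in CHH, where their median difference was 0.362 points and 1 was higher (0.388% of all TEs were). That element, AT1TE47705, had 3.08% of 65 calls and 18.9% of 90 calls.

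Markers of the sorted cells give no check of their identity, since methylation does not measure expression. Of 6 shoot stem cell genes, CLV3 (chr2:11664978-11665797) was higher in CG (0.151% of all genes were), at 3.06% in wt control, 29.4% in poliv control, 3.30% in wt heat and 35.9% in poliv heat. The reporter carries CLV3 sequence, so reads of the reporter and of the gene cannot be told apart. Within 50 kb of CLV3, AT2G27229 was lower in CG, as given above, and AT2G27315 was higher, at 40.6% in wt control and 65.7% in poliv control. None of the 6 tested markers of other cell types was called in any context.

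Losses in CHH and CHG went together at the same TE. Of 6393 TEs with at least 50 calls in the 3 contexts on both sides, 140 were lower in CHH, and 88 of these (62.9%) were also lower in CHG, against 2.61% of the TEs that were not lower in CHH. The CHG difference was below 0 at 138 of the 140, and their median CHG level was 56.4% in wt and 25.1% in poliv. Seen from CHG, 88 of 251 TEs lower in CHG (35.1%) were called in CHH, and the CHH difference was below 0 at 242 of them. CG followed less often. Of the 140 TEs, 22 (15.7%) were lower in CG, against 0.816% of the others, and of the 73 TEs lower in CG 38 (52.1%) were lower in CHG and 22 (30.1%) in CHH, against 3.37% and 1.87% of the TEs not lower in CG.

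By combination, 145 TEs were lower in CHG alone, 68 in CHH and CHG, 50 in CHH alone, 33 in CG alone, 20 in all contexts, 18 in CHG and CG, and 2 in CHH and CG. The 20 TEs that were lower in all contexts had median CG levels of 90.2% in wt and 55.7% in poliv, median CHG levels of 70.1% and 20.4%, and median CHH levels of 18.6% and 2.05%. The 68 TEs lower in CHH and CHG kept median CG levels of 88.7% and 83.9%, while their median CHG level was 56.4% and 15.6% and their median CHH level 15.9% and 1.88%. Those lower in CHG alone still had a lower median in CHH, 6.11% in wt and 1.45% in poliv, short of the 10 points that a call requires. The TEs lower in CG alone had lower levels in the other contexts in wt, and lower still in poliv. Their median CHG level was 16.2% in wt and 3.33% in poliv, and their median CHH level 3.50% and 0.687%. Most CHH losses could not be read in this way, since 1198 of the 1503 TEs lower in CHH had too few calls for a test in CHG and CG.

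**Figure D2:**
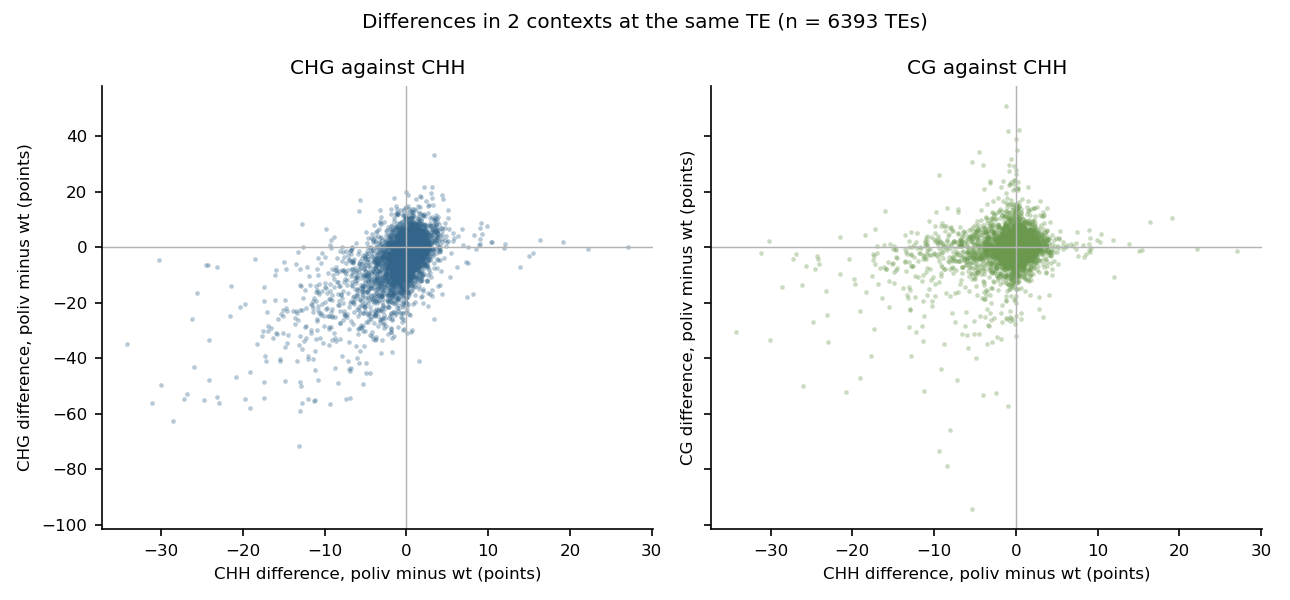
Difference between poliv control and wt control at the same TE in 2 contexts, for the 6393 TEs with at least 50 calls in each context on both sides. The left panel plots the CHG difference and the right panel the CG difference (y axes, percentage points) against the CHH difference (x axes, percentage points), and each point is 1 TE. TEs with a CHH loss lie mostly below 0 in CHG, while most of them stay near 0 in CG.

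In the plots of 1 context against another, the correlation across TEs was 0.62 (Pearson) and 0.46 (Spearman) between the CHH and CHG differences, 0.26 and 0.12 between CHH and CG, and 0.37 and 0.24 between CHG and CG. The points share libraries and reads, and TEs are not replicates. To keep the sampling error of the unheated libraries out of the grouping, TEs were also grouped by their CHH loss in the heated pair and read in the unheated pair. The median CHG difference was -34.8 points at the 19 TEs with a heated loss of at least 20 points, -24.2 at the 127 with a loss of 10 to 20, -14.6 at the 243 with a loss of 5 to 10, -3.10 at the 1427 with a loss of 1 to 5 and -0.187 at the 3940 within 1 point. The median CG difference in the same groups was -8.17, -4.09, -1.73, -0.186 and 0.067 points. CHG losses grew with the CHH loss over all of these groups, and CG losses were smaller than CHG losses in each group that lost more than 1 point.

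Genes had a similar order. Of 30398 genes with enough calls in the 3 contexts, 34 were lower in CHH. Of these 17 were also lower in CHG, against 0.194% of the genes not lower in CHH, and 7 in CG, against 0.0922%. Of the 76 genes lower in CHG, 17 were lower in CHH and 15 in CG, and the CHH difference was below 0 at 72. Of the 35 genes lower in CG, 20 were lower in no other context, and these 20 had a median CHG level of 1.56% in wt and median CG levels of 50.3% in wt and 18.6% in poliv.

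The loss of CHH methylation was also read by the level in wt. TEs were grouped by their CHH level in heated wt and read in the unheated pair. The mean CHH level was 1.04% in wt and 0.716% in poliv at the 8054 TEs under 2%, 3.38% and 2.30% at the 5138 TEs from 2 to 5%, and 6.02% and 4.57% at the 5008 TEs from 5 to 10%. At the 1718 TEs from 10 to 20% the means were 11.5% and 4.52%. At the 789 TEs of at least 20% the means were 28.3% and 11.2% and the medians 24.8% and 1.97%. The poliv mean was thus 68.5%, 68.1% and 75.9% of the wt mean in the lower classes and 39.2% and 39.6% in the classes from 10% upwards. These ratios include the unconverted background, 0.390% in wt and 0.404% in poliv by chloroplast CHH, which weighs most in the class under 2%. The 68.5% of that class is therefore too high as a measure of the methylation kept. At the 789 TEs 519 (65.8%) were called lower, but a call requires a drop of 10 points, so that shares of calls cannot be compared between classes of wt level.

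TEs were then divided by CHG level as well. Among TEs with 5 to 10% CHH in heated wt, those with at least 40% CHG (n = 2664) had median CHH levels of 5.80% in wt and 6.15% in poliv, those with 10 to 40% CHG (n = 217) had 4.53% and 2.16%, and those under 10% CHG (n = 25) had 1.6% in both. Among TEs with at least 10% CHH, those with at least 40% CHG (n = 491) had medians of 10.9% and 8.19% and 21.6% were called lower, and those with 10 to 40% CHG (n = 73) had 12.2% and 2.04% and 43.8% were called lower. The 20 TEs under 10% CHG had 10.4% and 21.4%, and 10% of them were called lower. The medians of wt and poliv thus lay further apart at 10 to 40% CHG than at 40% and over, but the few TEs with less CHG did not continue this order.

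The TEs with the highest CHH methylation ranged from nearly complete loss to little change in poliv. Of the 789 TEs with at least 20% CHH in heated wt, 399 (50.6%) were under 2% in poliv control, with a median of 22.5% in wt control and 1.29% in poliv heat. At the other end 158 (20.03%) had at least 20% in poliv control, with medians of 42.3% in wt control, 39.2% in poliv control and 37.7% in poliv heat, and of the 153 with values in poliv heat 36 were under 20% and 136 had at least 10% there. Between them, 178 TEs had 2 to 10% and 54 had 10 to 20%. The classes were set by the level in poliv control, which is a description, while the level in poliv heat comes from other libraries. CHG behaved alike in the classes. At the 17 TEs under 2% in poliv control with enough CHG calls the median CHG level was 60% in wt and 11.96% in poliv, and at the 36 such TEs with at least 20% it was 47.0% and 48.6%.

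**Figure D3:**
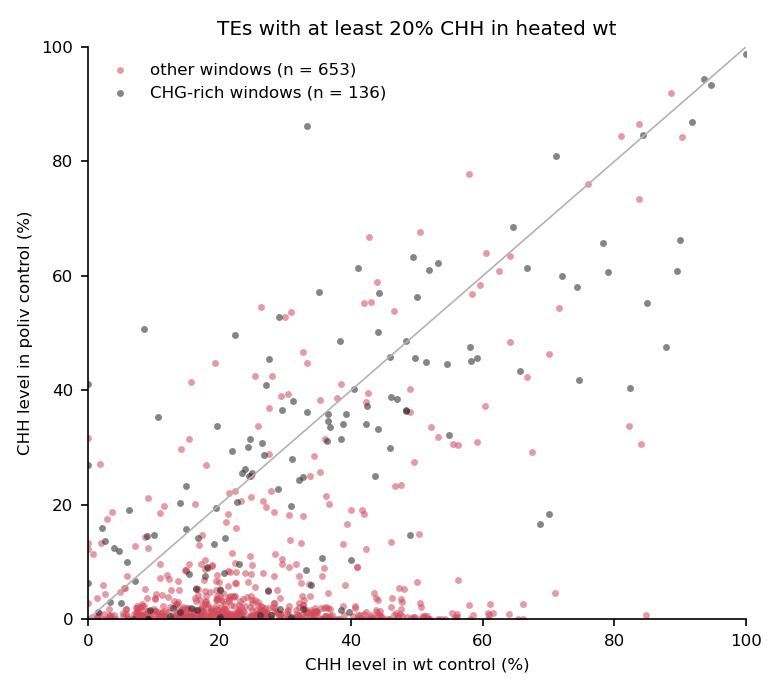
CHH level in poliv control (%, y axis) against CHH level in wt control (%, x axis) for the 789 TEs with at least 20% CHH in heated wt, with the line of equal levels. Dark points are the 136 TEs in the 5 windows of each chromosome with the highest CHG level in heated wt, and red points those in other windows. Many red points lie along the bottom and many dark points near the line.

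The plot of these 789 TEs separates them by place as well. Of the 158 TEs that kept at least 20% in poliv, 83 (52.5%) lay in the CHG-rich windows described next, against 20 of the 399 (5.01%) that fell under 2%. By chromosome, 64, 24, 26, 27 and 17 of the 158 were on chromosomes 1 to 5, and 45, 5, 6, 21 and 6 of these were in the CHG-rich windows. Most of the 45 lay between AT1TE49285 and AT1TE50965, and most of the 21 between AT4TE14605 and AT4TE14945. The contrast by place thus rests mainly on these stretches of chromosomes 1 and 4 and is not shown for CHG-rich windows in general.

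For positions, the TEs of each chromosome were put into 20 windows of equal number in the order of their identifiers, which run along the chromosome. The 5 windows of each chromosome with the highest mean CHG level in heated wt are called CHG-rich. They form a block near the middle of chromosomes 1, 2 and 5 (windows 8 to 12, 5 to 9 and 7 to 11), and on chromosomes 3 and 4 they are interrupted. TEs in the other windows were called lower more often. In the CHG-rich windows 136 of 5361 TEs were lower in CHH (2.54%), and the mean CHH level was 5.25% in wt and 4.80% in poliv. In the other windows 1367 of 15511 were lower (8.81%), with means of 4.56% and 2.04%. The wt means of both parts lay within 1 point of each other, and the poliv means did not. The medians differed already in wt, with 4.22% in CHG-rich and 1.54% in other windows, against 4.09% and 0.714% in poliv. The parts were thus not matched in wt level. Since a call requires a minimum drop in points, part of the contrast in shares called can come from different wt levels. CHG losses were at 26 of 3074 TEs (0.846%) in CHG-rich and at 289 of 4077 (7.09%) in other windows, with means of 52.9% and 51.4%, and of 32.9% and 28.3%. CG losses were at 9 of 3176 TEs (0.283%) and 106 of 4624 (2.29%).

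**Figure D4:**
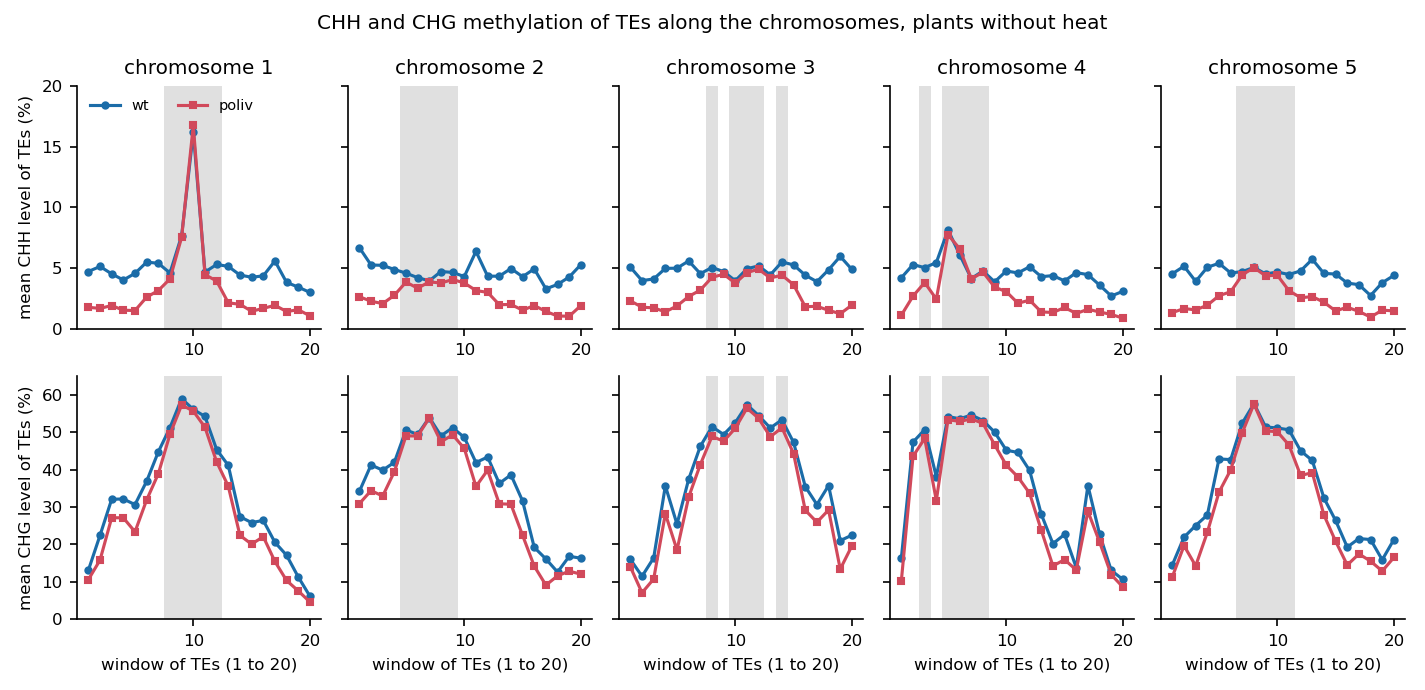
Mean CHH level (upper row, %) and mean CHG level (lower row, %) of TEs in wt control (circles) and poliv control (squares) in 20 windows along each chromosome (x axes), with CHG-rich windows shaded. Outside the shaded windows the poliv line lies below the wt line in CHH, and in window 10 of chromosome 1 both reach above 16%.

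Each chromosome showed the same contrast. The percentage of TEs lower in CHH was 2.97% in CHG-rich and 9.66% in other windows on chromosome 1, 2.77% and 8.46% on chromosome 2, 2.69% and 8.998% on chromosome 3, 1.99% and 8.27% on chromosome 4, and 2.24% and 8.45% on chromosome 5. In the heated pair 2.267% of TEs in CHG-rich and 8.38% in other windows were lower in CHH over all chromosomes, and 0.654% and 6.44% were lower in CHG. The plot along the chromosomes also shows window 10 of chromosome 1, where the mean CHH level was 16.2% in wt and 16.7% in poliv over 134 TEs.

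Part of the contrast between windows goes with the number of calls, which rises with the length of a TE. In quartiles of the CHH calls in heated wt, 11.4%, 10.5%, 5.79% and 1.15% of TEs were lower in CHH, from the fewest calls to the most. The mean CHH level was 5.37% in wt and 2.08% in poliv in the quartile with the fewest calls, and 4.86% and 4.71% in that with the most. Within the same quartiles, 12.9%, 11.3%, 6.42% and 1.999% of TEs were lower in other windows, and 5.01%, 6.20%, 3.01% and 0.306% in CHG-rich windows. The difference between windows was thus present in each quartile. TE length itself was not analysed here.

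Genes were placed by their start in RefSeq TAIR10.1. In the gene-poor megabases around the centromeres, 7 of 1745 genes were lower in CHH (0.401%), against 64 of 31595 elsewhere (0.203%). In CHG 0.653% and 0.264% were lower, and in CG 0.387% and 0.121% were lower and 0.0645% and 0.155% higher. With counts of 10 or fewer in the gene-poor part, these shares are rough.

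CG gains of genes lay on chromosome 1 more often than on the others, and losses only slightly so. On chromosome 1, 0.317% of the tested genes were higher, against 0.0210 to 0.114% on the others. For genes lower in CG the shares were 0.183% on chromosome 1 and 0.0803 to 0.161% on the others. After overlapping genes were joined, the 42 genes lower in CG gave 40 regions, 14 of them on chromosome 1, and the 47 higher gave 43 regions, 22 of them on chromosome 1, where 26.3% of the tested genes lie. Within 6 Mb of NRPD1, which holds 11.3% of the tested genes, there were 10 of the lower and 14 of the higher regions. This distance was chosen after the values were seen. Of the genes called in both pairs, 21 of those higher in CG were on chromosome 1, with 3, 1, 0 and 7 on chromosomes 2 to 5, and of those lower 11 were on chromosome 1, with 6, 2, 1 and 4 on the others. Within 50 kb of NRPD1 none of 26 genes tested in CG was called, and the largest difference was at AT1G62935, with 0.840% in wt control and 17.7% in poliv control.

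**Figure D5:**
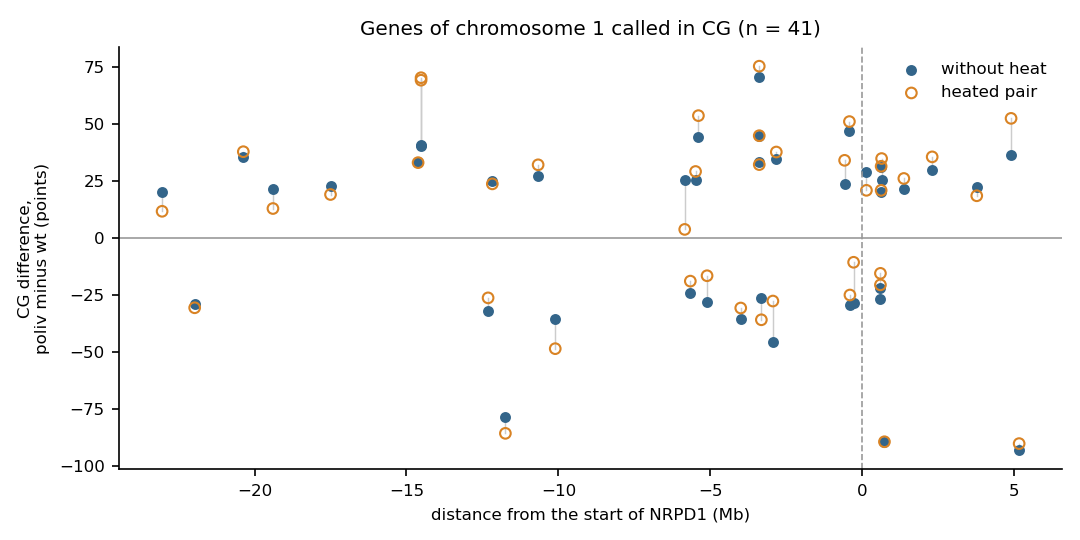
CG difference between poliv and wt (percentage points, y axis) of the 41 genes of chromosome 1 called in CG without heat, against the distance of their start from that of NRPD1 (Mb, x axis). Filled points are the unheated and open circles the heated pair, joined for each gene, and the dashed line marks NRPD1. Gains and losses stand side by side within 6 Mb of NRPD1, and the heated values have the sign of the unheated ones.

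In the plot for chromosome 1, gains and losses occur on both sides of NRPD1. Overlapping genes appear there as separate points, such as AT1G07887 and MRD1.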

How the data were processed

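Per the labels and the methods of the study, the authors made libraries from sorted nuclei with the Pico Methyl-Seq kit, ran Trim Galore 0.6.2 for trimming, mapped the reads on TAIR10 by Bismark 0.22.2, and used methylpy for methylation calling after deduplication. The processing notes also name bedtools 2.27. The deposited table holds, per locus, context and group, counts of methylated cytosine calls and of all calls. It also holds the deposited fraction methylated, in 18 columns that were not used. Levels were computed from 24 columns of calls in 4 groups, and 12 columns of another genotype were not analysed here. The columns name no replicate, so each was taken as 1 pooled value for 2 libraries, and no source used here says how the pair was combined. Of 69873 features 2 name no locus and were left out. The 134 chloroplast loci served as background only, and the 162 mitochondrial loci were in no comparison. The smallest coverage listed is 21.

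Loci with at least 50 calls on both sides were tested by two-sided Fisher's exact test (p as 2 times the smaller tail), with Benjamini-Hochberg adjustment within context over all loci. Pairs were compared by Woolf's test with 0.5 added to each cell. The Fisher test was checked on simulated calls with counting error only, so that check does not cover spread between libraries. Intervals are 95% Wilson intervals, and the limit at 0 methylated calls is that of 3 calls. Named loci are called members of the lists and, per context, class and direction, the 5 largest changes with at least 100 calls that passed the point minimum in the heated pair. Members and lists were chosen with earlier results of these data known. Gene names and positions are those of RefSeq TAIR10.1, matched for 37898 of 38386 genes. TE positions are orders of identifiers. Alternatives were coverage minimums of 20 and 200, lower or no point minimums, scaling by dispersion, weighting by coverage, subtraction of the chloroplast level, the heated pair, grouping on wt control and 10 windows. Windows ranked by CHG, 1-Mb bins and distances to NRPD1 were added after the data were seen. Python 3.11.15, numpy 2.4.6, pandas 2.3.3, scipy 1.17.1 and matplotlib 3.10.9 were used.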

Additional observations from a re-analysis of the deposited data

Results flagged for a closer look

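The genotype difference differed in size between unheated and heated plants at 9 of 149 TEs called in CG, at 159 of 1526 called in CHH and at 0 of 302 called in CHG, by Woolf's test with Benjamini-Hochberg adjustment. Over all TEs it did at 206 of 7551 in CG, 807 of 20228 in CHH and 3 of 6952 in CHG. Among the named loci this was so at AT1G05927 in CG, with 40.8 points without heat and 70.2 with heat (adjusted p of 0.0178), and at AT2TE78945 in CHH, with -19.1 and -11.8 points (0.00272). AT4TE21880 had CG differences of -65.8 and -53.6 points (0.0314). AT4G04223, a non-coding RNA gene that was chosen after its values were seen, had -75.2 and -38.5 points in CG (0.00908). AT5G26970 differed in CG, with -43.6 and -9.22 points (0.0466), and in CHG, with -54.8 and -24.8 points (7.05e-05). All of these kept their direction in heated plants. For AT1G05927 and AT4TE21880 in CG and AT5G26970 in CHG this was a condition of being named, so it is no separate result. The test compares 4 sets of pooled libraries, so differences between plants and differences due to heat cannot be told apart.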

How the results depend on the processing

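No paired analysis was possible because the columns hold 1 pooled value per group, and for the same reason no library was left out in turn. Counts of called loci moved with the thresholds, while losses outnumbered gains in TEs under each alternative. With 200 calls as the minimum, 362 TEs were lower and 25 higher in CHH, 20 and 0 in CHG and 9 and 1 in CG, and for genes the counts were 44 and 1, 11 and 1, and 8 and 6. With 20 calls 746 TEs were lower in CHG, 252 lower and 85 higher in CG. With point minimums of 5 in CHH and 10 in CHG and CG, 2419 TEs were lower and 163 higher in CHH, 18 higher in CHG, 191 lower and 98 higher in CG, and for genes 212 and 16, 187 and 27, and 132 and 265. With the adjusted p alone the TE counts were 3021 and 811, 510 and 46, and 295 and 215, and the gene counts 1065 and 467, 374 and 104, and 1066 and 1983. With scaling by dispersion (4.92 in CHH, 2.41 in CHG, 2.07 in CG) they were 433 and 5, 125 and 0, and 71 and 21 for TEs, and 32 and 0 and 28 and 1 for genes in CHH and CHG, with 31 genes higher in CG. In the heated pair 10 genes were higher in CHH and 9 in CHG.

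Mean differences of TEs in CHH, CHG and CG were -1.99, -3.27 and -0.435 points. They were -0.0983, -0.860 and -0.0248 weighted by coverage, -0.998, -0.905 and -0.0326 with 200 calls, -2.18, -5.26 and -0.960 with 20 calls, -2.07, -2.67 and -1.33 in the heated pair, and -2.005 in CHH with the chloroplast level subtracted. Those of genes in CHH and CHG were -0.0853 and -0.256 points, and -0.00943 and -0.0396 weighted, -0.0647 and -0.0736 with 200 calls, -0.0887 and -0.344 with 20 calls, -0.139 and -0.233 in the heated pair and -0.100 and -0.266 with the chloroplast level subtracted. In CG genes had 0.341 points, 0.209 in the heated pair and 0.321 with the chloroplast level subtracted. Of TEs lower in CHH, 62.9% were also lower in CHG, which became 75% with 200 calls (0% in CG) and 52.7% with lower point minimums. With 200 calls few TEs were lower in CHG or CG at all, as counted above. The 75% and 0% thus rest on a small number of TEs and show no strengthening. Of TEs with at least 20% CHH, 65.8% were called lower, and 81.1% when grouped on wt control. The contrast between windows stayed the same with 10 windows. Of the values at named loci, 65 kept their call with dispersion scaling and 15 did not.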

Other observations

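Mitochondrial loci, which were in no comparison, had a mean CG level of 7.62% in wt control and 6.35% in poliv control over 65 loci, and 4.65% and 3.72% in the heated groups. Their mean levels without heat were 4.64% and 4.03% in CHG and 0.758% and 0.688% in CHH. Chloroplast loci had a mean CG level of 0.334% in wt control. Whether these calls come from mitochondrial DNA itself was not tested, so the values are not read as a genotype difference.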
